A study of Arabidopsis thaliana with 12 samples.

Results

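Expansins are wall proteins that loosen cellulose and hemicellulose contacts at acid pH without cutting them, which lets a turgid plant cell extend. The superfamily in Arabidopsis thaliana has alpha-expansins (EXPA), which carry most of the known loosening activity in dicot walls, beta-expansins (EXPB), and the expansin-like EXLA and EXLB proteins, whose activity on walls is not established. Elongation of the seedling stem in darkness is a classic setting in which growth-promoting factors such as the PIF proteins act through auxin and wall-loosening genes.

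The 35 genes listed for the superfamily are 26 alpha-expansins, 5 beta-expansins, 3 EXLA and 1 EXLB gene, taken by locus and not by any measured value. Of these, 33 were measured, by 31 of the 22746 probe sets of the array. By the annotated loci, a probe set of their own stood for 29 of them, EXPA22 and EXPA26 shared 1 probe set (EXPA22/26), and EXPA23 and EXPA25 shared another (EXPA23/25). EXPA19 had no probe set, and the probe set of EXLA1 also matched AT3G45980, a locus outside the family, so neither is reported. No member had several probe sets.

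Levels were measured on 12 Affymetrix arrays of whole seedlings, with 3 arrays in each of 4 groups. CCA1-34, an arrhythmic line that overexpresses the clock protein CCA1, was sampled late (1240 min after dawn) and early (280 min), and wild-type Columbia (Col) was sampled at the same late and early times. CCA1-34 is a single line, and the promoter that drives CCA1 is not given in the sources used here. All seedlings grew on medium with sucrose for 4 short days (8 h light, 16 h dark) and then received 160 min light pulses separated by 320 min of darkness, and all were taken 120 min after lights-off. The design text states that CCA1-34 grew at both times, while Col grew early and did not grow late. Replicates 1, 2 and 3 of each group were 5, 6 and 7 days old, so n = 3 for every group mean. The values are RMA values on the log2 scale, in which a difference of 1 is a doubling of the signal. They are comparable between arrays for 1 probe set but not between probe sets.

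The labels were checked on CCA1, which lay between 8.46 and 10.2 in the 6 CCA1-34 arrays and between 2.47 and 6.37 in the 6 Col arrays (difference 5.34). A two-sided exact permutation test gave p = 0.00216, and 924 assignments of the arrays allow none smaller. Array medians were 4.01 to 4.12, and arrays of a group correlated with r of 0.962 to 0.992. A pair of arrays stood apart in genes of the light state (HY5, HYH, BBX22, BBX24, ELIP1, ELIP2 and CHS): their mean was 7.06 in CCA1-34 early replicate 2 and 6.57 in Col early replicate 3, against 4.35 to 6.11 in the other 10 arrays. The mean of 5 darkness and starvation genes (DIN1, DIN2, DIN4, DIN6 and DIN10) was lowest in the same arrays, at 4.66 and 5.23. Not every gene followed the mean: DIN2 was highest of all arrays in Col early replicate 3 (4.71). DIN1 was lower in Col late replicate 1 (7.28) than in Col early replicate 3 (7.65). Counts of members are given with and without these arrays. The labels do not say that arrays came from independent sowings, and every p-value here rests on the spread among these arrays. The 3 arrays of a group differ in age and day, so they are not repeats of 1 sample. In group comparisons without a term for the day, that spread includes any difference between the ages.

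The family split clearly by signal. In all 12 arrays 19 of the 31 probe sets lay above the array median, which was true of 43.1% of all probe sets. They include EXPA1, EXPA3, EXPA4, EXPA5, EXPA6, EXPA8, EXPA10 and EXPA11 of the alpha-expansins, EXPB1 and EXPB3, EXLA2 and EXLB1. The others are EXPA2, EXPA9, EXPA13 and EXPA18, described with the ages, and EXPA14 (4.26 to 5.23), EXPA15 (5.61 to 7.11) and EXPA20 (4.17 to 4.79), of which 0 of 3 had an unadjusted p under 0.05 in any comparison with all arrays. Below the median in all 12 arrays were 9 probe sets with means of 1.68 to 2.71: EXPA12, EXPA21, EXPA22/26, EXPA23/25, EXPA24, EXPB2, EXPB4, EXPB5 and EXLA3. Their signal was not tested against background, and differences so low on the scale may understate any change. The remaining 3, EXPA7, EXPA16 and EXPA17, crossed the median. The neighbouring loci EXPA21 to EXPA26 on chromosome 5 were all in the dim class, with values between 1.69 and 2.50. Among probe sets above the median in all arrays, the median residual SD was 0.424 for the family and 0.24 for all, so arrays of 1 group differed more for expansins than for the typical gene of this class.

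**Figure D1:**
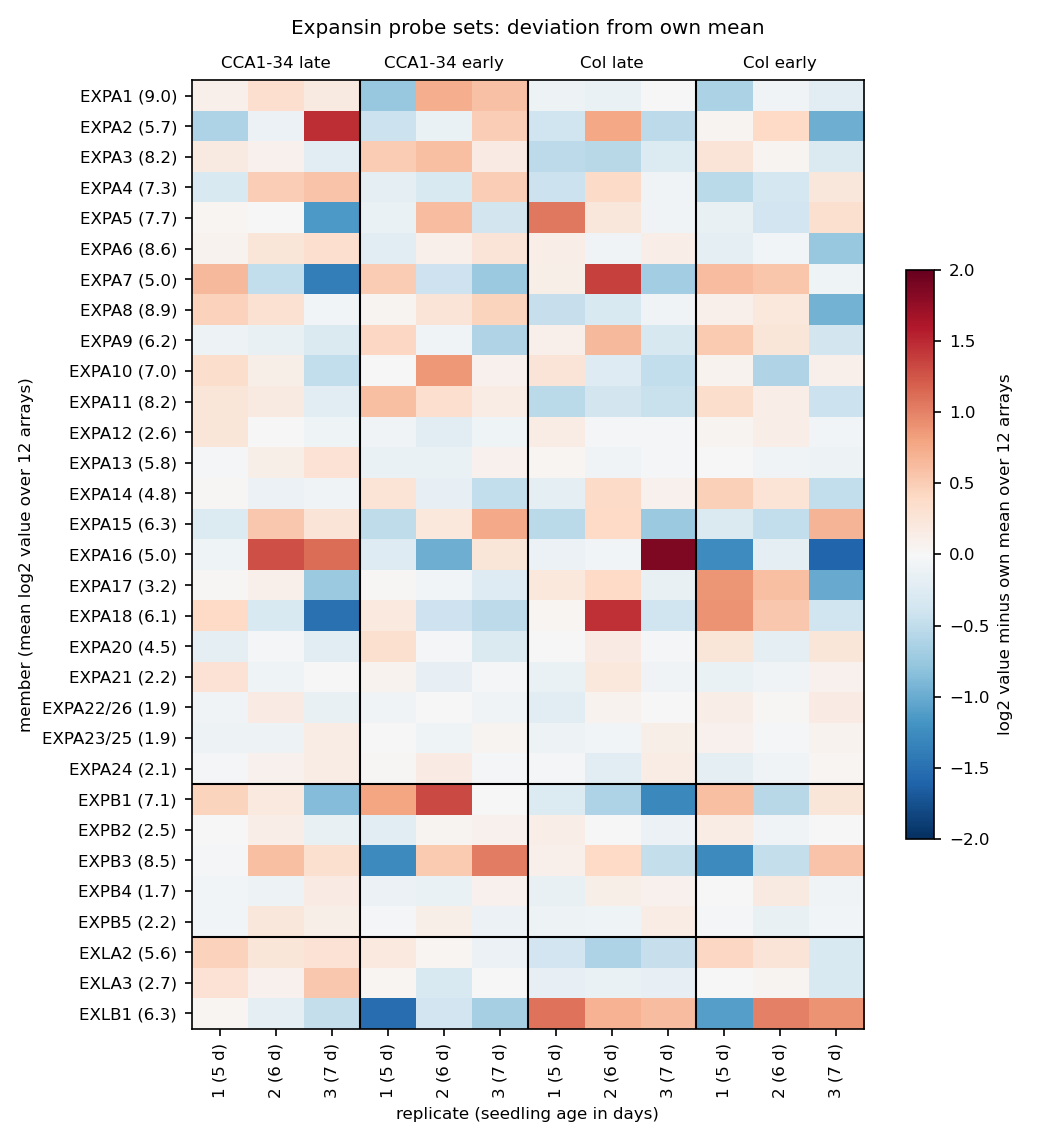
Deviation of each of the 31 expansin probe sets (rows, with the mean log2 value over 12 arrays in brackets) from its own mean, for the 12 arrays (columns, by group, replicate and age). EXPA2, EXPA7, EXPA16, EXPA18, EXPB1, EXPB3 and EXLB1 vary most, each over a range of at least 2.29, and the dim members from EXPA21 to EXPA24 hardly vary.

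Growing and non-growing groups were compared first, because expansins are wall-loosening proteins and Col late is the group described as not growing. No expansin passed limma's test over all probe sets (adjusted p under 0.05): 0 of 31 did so between the mean of the 3 growing groups and Col late, and 0.0176% of all probe sets did. At an unadjusted p under 0.05, 5 of 31 stood out (16.1%), where 5.32% of all probe sets did. They were EXLA2, EXPA3, EXPA11 and EXPB1, which were higher in the growing groups (12.9% of the family, 2.85% of all), and EXLB1, which was lower (3.23%, 2.47% of all). Without both early arrays that stand apart the count in either direction was 6 of 31, against 8% of all. The median difference was 0.01 for the family and 0 for all probe sets. These shares describe the members, which are few and share sequence, and no test of the list was made.

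EXLA2 (AT4G38400), an expansin-like gene, was lower in all 3 Col late arrays than in any other array. It stood at 6.06, 5.83 and 5.88 in CCA1-34 late (replicates 1, 2 and 3, as in all lists of 3 values here), at 5.78, 5.63 and 5.47 in CCA1-34 early, at 5.21, 4.98 and 5.13 in Col late and at 6.01, 5.85 and 5.28 in Col early. Groups that do not overlap in this direction were found for 1 of 31 members and for 0.673% of all probe sets. The growing groups averaged 5.76 and Col late 5.11 (difference 0.65, SE 0.143, limma adjusted p = 0.302). The gap to Col late was narrowest in Col early replicate 3, where the light state genes were high, and the part of that state in the result was not tested. Without that array the difference was 0.72 and passed (limma adjusted p = 0.0384), and without both early arrays that stand apart it was 0.72 (adjusted p = 0.0377). With both left out, limma passed 66 of all probe sets, against 4 with all arrays.

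EXPA3 (AT2G37640) and EXPA11 (AT1G20190), both alpha-expansins, had their lowest mean in Col late, as EXLA2 had, but their highest in CCA1-34 early. Late minus early was -0.41 in CCA1-34 and -0.46 in Col for EXPA3 (SE 0.173 each). For EXPA11 it was -0.29 and -0.47 (SE 0.204 each). The lines differed in this by 0.05 (SE 0.244) and 0.18 (SE 0.288). Both genes thus averaged lower late in CCA1-34 too, the line described as growing at both times. EXPA3 stood at 8.34, 8.25 and 7.96 in CCA1-34 late, at 8.67, 8.77 and 8.33 in CCA1-34 early, at 7.65, 7.61 and 7.89 in Col late and at 8.43, 8.22 and 7.87 in Col early. EXPA11 had 8.43, 8.37 and 7.98 in CCA1-34 late, 8.80, 8.53 and 8.34 in CCA1-34 early, 7.66, 7.82 and 7.74 in Col late and 8.55, 8.33 and 7.76 in Col early. In both genes Col late lay below every CCA1-34 array, and Col early replicate 3 alone of the growing arrays fell within the Col late range. The growing groups averaged 8.31 for EXPA3, against 7.72 in Col late (difference 0.59, SE 0.141, limma adjusted p = 0.385). For EXPA11 they averaged 8.34, against 7.74 in Col late (difference 0.60, SE 0.166, limma adjusted p = 0.576). With array weights, set by how closely each array followed its group means, EXPA3, EXPA11 and EXLA2 passed (limma adjusted p of 0.0164, 0.0228 and 0.0195). In this setting Col late replicate 1 had the largest weight (3.99) and Col early replicate 3 the smallest (0.384). The share of all probe sets that passed with these weights is not given here, so the calls cannot be set against it.

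EXPB1 (AT2G20750), a beta-expansin, had means of 7.39 in the growing groups and 6.42 in Col late (difference 0.97, SE 0.369, limma adjusted p = 0.876). Its arrays were 7.59, 7.34 and 6.28 in CCA1-34 late, 7.93, 8.47 and 7.13 in CCA1-34 early, 6.87, 6.53 and 5.85 in Col late and 7.75, 6.59 and 7.39 in Col early. The groups overlapped, and within 3 of the 4 groups the 7-day array was the lowest. Late minus early was alike in the lines, at -0.77 in CCA1-34 and -0.83 in Col (SE 0.452 each). EXLB1 (AT4G17030) ran the other way between the growing groups and Col late, where it was higher. It lay at 6.39, 6.15 and 5.88 in CCA1-34 late, 4.82, 5.96 and 5.69 in CCA1-34 early, 7.44, 7.05 and 6.96 in Col late and 5.25, 7.36 and 7.24 in Col early. Of the 6 Col arrays, 5 lay above all CCA1-34 arrays, and the exception was Col early replicate 1.

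**Figure D2:**
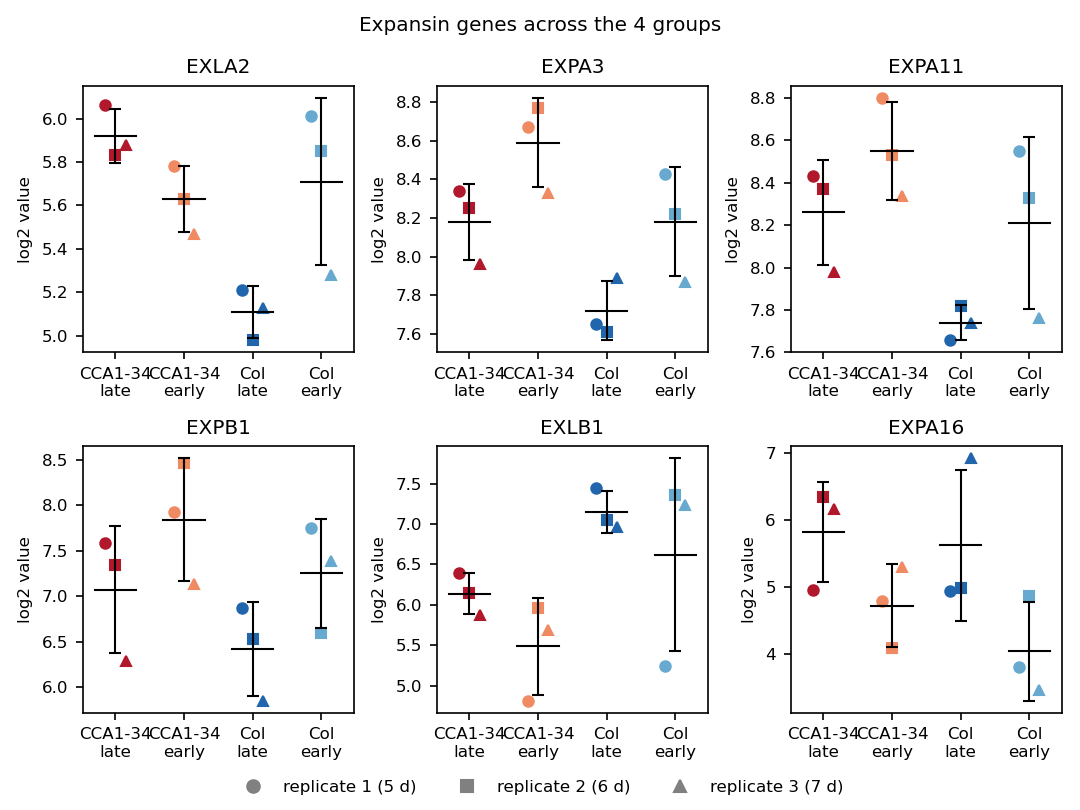
Log2 values of 6 expansin genes in the 4 groups. Symbols are arrays (shape gives replicate and age), bars are group means and whiskers are SD (n = 3). Col late is lowest for EXLA2 (mean 5.11), EXPA3 (7.72) and EXPA11 (7.74), and EXLB1 is lower in both CCA1-34 groups (6.14 and 5.49) than in either Col group (7.15 and 6.62).

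The time of day was then compared within each line. At each age the late seedlings had also spent longer under the light pulses. This cannot be told apart from the time of day. In CCA1-34, late against early, limma passed 0 of 31 expansins and 0% of all probe sets. At an unadjusted p under 0.05 there were 2 of 31 (6.45%), against 1.68% of all: EXLA3, higher late by 0.39 (SE 0.144, limma adjusted p = 1), and EXPA3, at -0.41 (SE 0.173, limma adjusted p = 1). EXLA3 (AT3G45960), an expansin-like gene, lay at 3.00, 2.80 and 3.25 in CCA1-34 late, 2.75, 2.41 and 2.71 in CCA1-34 early, 2.55, 2.58 and 2.55 in Col late and 2.72, 2.76 and 2.41 in Col early. All of these lie below the array medians, and CCA1-34 late was the only group above 2.76. With the early arrays that stand apart left out, the count was 0 of 31, against 2.01% of all. The median over the family was 0.03, against 0 for all probe sets.

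In Col, late against early, limma again passed 0 of 31, and 1 of 22746 probe sets (0.0044%) that is no expansin. At an unadjusted p under 0.05, 4 of 31 stood out (12.9%), where 5.41% of all probe sets did: EXLA2, EXPA3 and EXPA11, lower late (9.68%, against 2.66% of all), and EXPA16, higher late (3.23%, against 2.74%). The differences were -0.61 (SE 0.175) for EXLA2, -0.46 (SE 0.173) for EXPA3 and -0.47 (SE 0.204) for EXPA11, with limma adjusted p of 0.817, 0.9 and 0.9. Without both early arrays that stand apart it was 4 of 31, with EXPA8 in place of EXPA16, against 7.27% of all probe sets.

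EXPA16 (AT3G55500), an alpha-expansin, had the largest time difference of the family in both lines with all arrays. With the early arrays that stand apart left out, it was 0.78 in CCA1-34, where EXLB1 had 0.89, and 1.28 in Col. It lay at 4.96, 6.34 and 6.17 in CCA1-34 late and at 4.79, 4.08 and 5.30 in CCA1-34 early, and at 4.94, 4.99 and 6.92 in Col late against 3.80, 4.87 and 3.46 in Col early. The late arrays lay above all early arrays in Col but not in CCA1-34. Late minus early was 1.10 in CCA1-34 (SE 0.596, limma adjusted p = 1), 1.57 in Col (SE 0.596, adjusted p = 0.9) and 1.34 over both lines (SE 0.422, adjusted p = 0.865). The Col difference was 0.77 with array weights and 0.92 without Col late replicate 3, the array with the highest value. Over both lines limma passed 0 of 31 expansins and 0% of all probe sets, and 4 of 31 (12.9%) against 5.16% of all had an unadjusted p under 0.05: EXPA3 (-0.43, SE 0.122), EXPA16, EXPA11 (-0.38, SE 0.144) and EXPB1 (-0.80, SE 0.319). Without both early arrays that stand apart it was 4 of 31, against 7.5% of all, with EXLB1 (0.87) and EXLA2 (-0.26) in place of EXPA16 (1.03) and EXPB1 (-0.61).

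Whether the change over the day differed between the lines was asked with the interaction, CCA1-34 (late minus early) minus Col (late minus early). EXLA2 had the smallest p of the family, with late minus early at 0.29, 0.20 and 0.41 on the 3 days in CCA1-34 and at -0.80, -0.87 and -0.15 in Col. The lines thus moved in opposite directions on each day, which held for 1 of 31 members and 1.85% of all probe sets. Its interaction was 0.90 (SE 0.247), with an adjusted p of 1, and limma passed 0 of 31 expansins, as it did 0% of all probe sets. At an unadjusted p under 0.05 EXLA2 and EXLA3 stood out, 6.45% of the family against 2.04% of all. With the early arrays that stand apart left out, the same genes stood out, at 1.12 for EXLA2 and 0.47 for EXLA3, against 2.54% of all. EXPA5 (AT3G29030), an alpha-expansin tied to brassinosteroid-dependent growth, followed with an interaction of -0.88 (SE 0.556, limma adjusted p = 1), which was -1.33 with array weights, -0.49 when CCA1-34 late replicate 3 was left out and -0.55 when Col late replicate 1 was. Its values were 7.74, 7.69 and 6.55 in CCA1-34 late, 7.56, 8.32 and 7.33 in CCA1-34 early, 8.75, 7.92 and 7.63 in Col late and 7.55, 7.32 and 8.01 in Col early, and all groups overlapped.

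**Figure D3:**
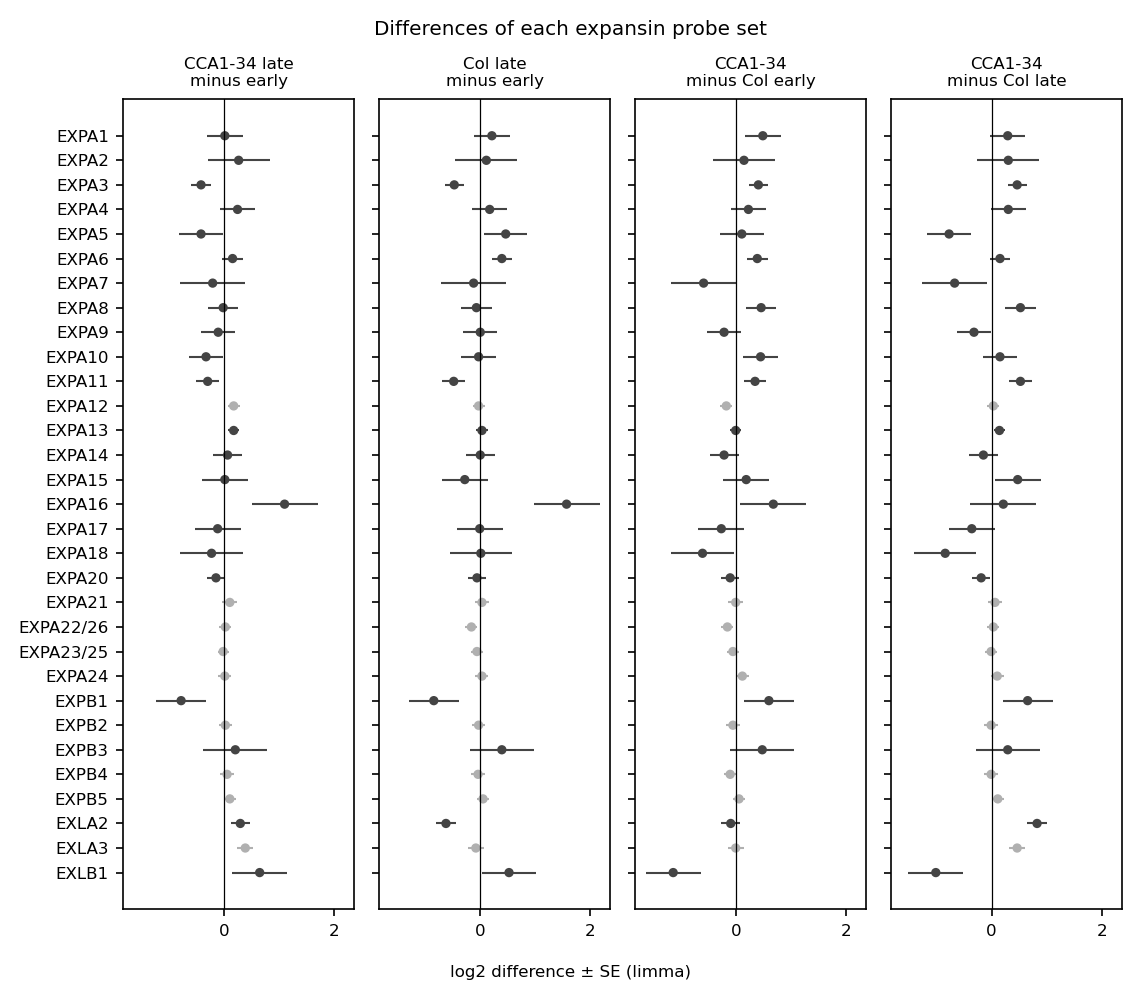
Log2 difference ± SE from limma (x axes) of the 31 expansin probe sets in 4 comparisons; grey points are the 9 members below the array median in all arrays. EXPA16 has the largest late minus early differences (1.10 in CCA1-34 and 1.57 in Col), EXLA2 has a line difference of -0.09 early and 0.82 late, and of the dim members EXLA3 has 0.39 in CCA1-34 late minus early and 0.46 between the lines late, while the other 8 lie between -0.17 and 0.18.

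The lines were compared at each time. Late, limma passed 0 of 31 expansins and 0.00879% of all probe sets, while 4 of 31 (12.9%) had an unadjusted p under 0.05, against 3.79% of all. All 4, EXLA2, EXLA3, EXPA11 and EXPA3, were higher in CCA1-34, a direction in which 2.35% of all stood out. With the day as a block limma passed 0 of 31 and 0.0264% of all, and without both early arrays that stand apart 5 of 31 against 5.37% had an unadjusted p under 0.05. EXLA2 averaged 5.92 ± 0.124 in CCA1-34 and 5.11 ± 0.118 in Col (SD, n = 3; difference 0.82, SE 0.175, limma adjusted p = 0.383, or 0.0240 with array weights). EXLA3 differed by 0.46 (SE 0.144, limma adjusted p = 1), EXPA11 by 0.52 (SE 0.204, adjusted p = 1) and EXPA3 by 0.46 (SE 0.173, adjusted p = 1). Late arrays of the lines did not overlap for 6 members higher in CCA1-34 (19.4%, against 5.45% of all probe sets), which adds EXPA1 and EXPA8 to these 4, and for EXLB1, lower in CCA1-34 (3.23%, against 4.78%).

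Early, limma passed 0 of 31 expansins and 0.0044% of all probe sets, and 2 of 31 (6.45%) against 3.57% of all had an unadjusted p under 0.05. EXPA3 averaged 8.59 ± 0.231 in CCA1-34 and 8.18 ± 0.282 in Col (SD, n = 3; difference 0.41, SE 0.173, limma adjusted p = 1), and its difference was 0.26 without Col early replicate 3 and 0.17 without both early arrays that stand apart. EXLB1 averaged 5.49 ± 0.597 in CCA1-34 and 6.62 ± 1.19 in Col (SD, n = 3; difference -1.13, SE 0.495, limma adjusted p = 1), or -1.81 without Col early replicate 1 and -0.76 without Col early replicate 2. Without both early arrays that stand apart it was -1.05. With the early arrays that stand apart left out, 1 of 31 (EXPA17), against 2.96% of all, had an unadjusted p under 0.05. EXPA6 (AT2G28950), an alpha-expansin, came next with 0.39 (SE 0.185, limma adjusted p = 1), or 0.17 without Col early replicate 3 and 0.15 without both arrays that stand apart. Its arrays were 8.68, 8.84 and 8.94 in CCA1-34 late, 8.40, 8.70 and 8.87 in CCA1-34 early, 8.74, 8.54 and 8.74 in Col late and 8.42, 8.55 and 7.84 in Col early. The lowest of these is again Col early replicate 3.

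Over both times, 6 CCA1-34 against 6 Col arrays, limma passed 0 of 31 expansins and 0.022% of all probe sets. Here 6 of 31 (19.4%) had an unadjusted p under 0.05, against 5.39% of all. EXPA3 (0.44, SE 0.122), EXPA11 (0.43, SE 0.144), EXLA2 (0.36, SE 0.123), EXPA8 (0.49, SE 0.194) and EXLA3 (0.23, SE 0.102) were higher in CCA1-34 (16.1%, against 2.99% of all), and EXLB1 (-1.07, SE 0.35) was lower (3.23%, against 2.4%). With the day as a block limma passed 0 of 31 and 0.0703% of all. Without both early arrays that stand apart 6 of 31 against 5.55% had an unadjusted p under 0.05. No member separated all arrays of the lines, as 0.382% of all probe sets did. Among the 19 members above the median in all arrays, 13 were higher in CCA1-34 with a median of 0.27, where 48.6% of all probe sets of this class were higher.

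EXPA8 (AT2G40610) and EXPA1 (AT1G69530) are alpha-expansins, and EXPA1 is known for its part in guard cell movement. EXPA8 lay at 9.41, 9.26 and 8.90 in CCA1-34 late, 9.01, 9.21 and 9.39 in CCA1-34 early, 8.49, 8.65 and 8.88 in Col late and 9.05, 9.16 and 8.01 in Col early. Every Col late array lay below every CCA1-34 array, and late the lines differed by 0.52 (SE 0.274, limma adjusted p = 1). EXPA1 lay at 9.08, 9.32 and 9.17 in CCA1-34 late, 8.23, 9.71 and 9.57 in CCA1-34 early, 8.88, 8.85 and 8.97 in Col late and 8.36, 8.92 and 8.76 in Col early. The lines differed by 0.39 over both times (SE 0.227, limma adjusted p = 0.999). The mean of the 3 guard cell markers KAT1, FAMA and MYB60 was 3.45 to 3.96 in CCA1-34 late, 3.02 to 3.58 in CCA1-34 early, 2.95 to 4.13 in Col late and 3.02 to 3.67 in Col early. The mean hides opposite directions. Over both times KAT1 was higher in CCA1-34 by 0.87 (SE 0.363). FAMA (-0.17, SE 0.181) and MYB60 (-0.37, SE 0.164) were lower. The part of guard cells in EXPA1 was not tested. EXPA10, an alpha-expansin of leaves and pedicels, did not separate any groups, at 7.31, 7.08 and 6.48 in CCA1-34 late, 6.95, 7.83 and 7.05 in CCA1-34 early, 7.23, 6.70 and 6.48 in Col late and 7.04, 6.37 and 7.06 in Col early.

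The expansins of root hairs were among the members with the steepest differences between ages. As a slope per day over 5, 6 and 7 days, limma passed 0 of 31 expansins, where it passed 179 of all probe sets (0.787%). That count over all probe sets was 0 without Col early replicate 1 and 427 without Col late replicate 2. At an unadjusted p under 0.05, 9 of 31 stood out (29%), against 16.5% of all. With a negative slope there were 7 (EXPA7, EXPA18, EXPA9, EXPA17, EXPA11, EXPB1 and EXLA2; 22.6% against 7.24% of all), and with a positive slope 2 (EXPA4 and EXPB3; 6.45% against 9.21%). With the early arrays that stand apart left out, the count in either direction was 11 of 31, against 17.4% of all. EXPA18, EXLA2 and EXPB3 were then no longer among them, while EXPA1, EXPA5, EXPA10, EXPA16 and EXPB4 were added. Age and day of sampling cannot be told apart.

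EXPA7 (AT1G12560) and EXPA18 (AT1G62980) are alpha-expansins of root hair cells, where they act as the hair emerges and elongates. EXPA7 stood at 5.61, 4.46 and 3.58 in CCA1-34 late, 5.46, 4.55 and 4.22 in CCA1-34 early, 5.07, 6.33 and 4.26 in Col late and 5.58, 5.52 and 4.88 in Col early at 5, 6 and 7 days. EXPA18 stood at 6.47, 5.77 and 4.58 in CCA1-34 late, 6.27, 5.66 and 5.55 in CCA1-34 early, 6.12, 7.54 and 5.67 in Col late and 6.98, 6.61 and 5.68 in Col early. In all 4 groups both genes were lower at 7 than at 5 days, which held for 7 of 31 members (22.6%) and 11.9% of all probe sets. The slope was -0.60 per day for EXPA7 (SE 0.183, limma adjusted p = 0.141) and -0.54 for EXPA18 (SE 0.184, adjusted p = 0.175). Without Col late replicate 2, the array with the highest value of each gene, EXPA7 and EXPA18 passed (limma adjusted p of 0.0320 and 0.0447). The slopes were the same, which leaving out a 6-day array cannot change. More of all probe sets also passed without this array, as given above. Without both early arrays that stand apart the slopes were -0.63 and -0.5, and neither passed (limma adjusted p of 0.185 and 0.289).

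A list of 7 other root hair genes was set beside them. Limma passed 0 of these for age, and 4 had an unadjusted p under 0.05, as 16.5% of all probe sets had. The mean of COBL9, LRX1, PRP3, RHD2, COW1, RSL4 and RHD6 was 4.74, 3.86 and 3.64 in CCA1-34 late, 4.49, 3.89 and 3.76 in CCA1-34 early, 4.40, 5.22 and 3.92 in Col late and 4.88, 4.68 and 4.57 in Col early. Its highest array, Col late replicate 2, and its lowest, CCA1-34 late replicate 3, are also the highest and lowest of EXPA7 and of EXPA18. The mean of the endodermis genes CASP1 to CASP5, of another root cell type, ranged from 5.84 to 6.67 in CCA1-34 late, 6.25 to 7.31 in CCA1-34 early, 5.15 to 6.66 in Col late and 4.28 to 6.71 in Col early, and CASP5 fell with age by 1.24 per day (limma adjusted p = 0.0432). In whole seedlings a smaller share of root hair cells and less RNA per cell cannot be told apart, and the part of root tissue in these slopes was not tested. Between the lines over both times EXPA7 differed by -0.63 (SE 0.416) and EXPA18 by -0.72 (SE 0.398), both with a limma adjusted p of 0.999. Of the 7 other root hair genes 6 were lower in CCA1-34 and 1 was higher, with a median of -0.55. Limma passed 0 of them, and 47.2% of all probe sets were higher in CCA1-34.

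EXPA17, an alpha-expansin of lateral root formation named after its values were seen, and EXPA9 had slopes of -0.41 (SE 0.136, limma adjusted p = 0.169) and -0.31 (SE 0.0964, adjusted p = 0.141). Without both early arrays that stand apart these slopes were -0.23 (SE 0.0846) and -0.27 (SE 0.111). EXPA17 lay above the array median in only 1 array. EXPA9 lay at 6.11, 6.07 and 5.92 in CCA1-34 late, 6.63, 6.14 and 5.61 in CCA1-34 early, 6.31, 6.86 and 5.89 in Col late and 6.73, 6.46 and 5.84 in Col early. It was highest in Col late replicate 2, as the mean of the root hair genes was. EXPB1 had a slope of -0.44 (SE 0.148, limma adjusted p = 0.176) and passed without both early arrays that stand apart (-0.57, adjusted p = 0.0425). In that setting limma passed 213 of all probe sets, against 179 with all arrays. EXPA4, an alpha-expansin, had the smallest p of the family and the opposite sign, 0.33 per day (SE 0.0931, limma adjusted p = 0.118). Its arrays were 6.96, 7.76 and 7.83 in CCA1-34 late, 7.08, 6.96 and 7.76 in CCA1-34 early, 6.83, 7.64 and 7.19 in Col late and 6.73, 6.91 and 7.49 in Col early, higher at 7 than at 5 days in each group. This held for 2 of 31 members (6.45%), EXPA4 and EXPA1, and for 13.1% of all probe sets.

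**Figure D4:**
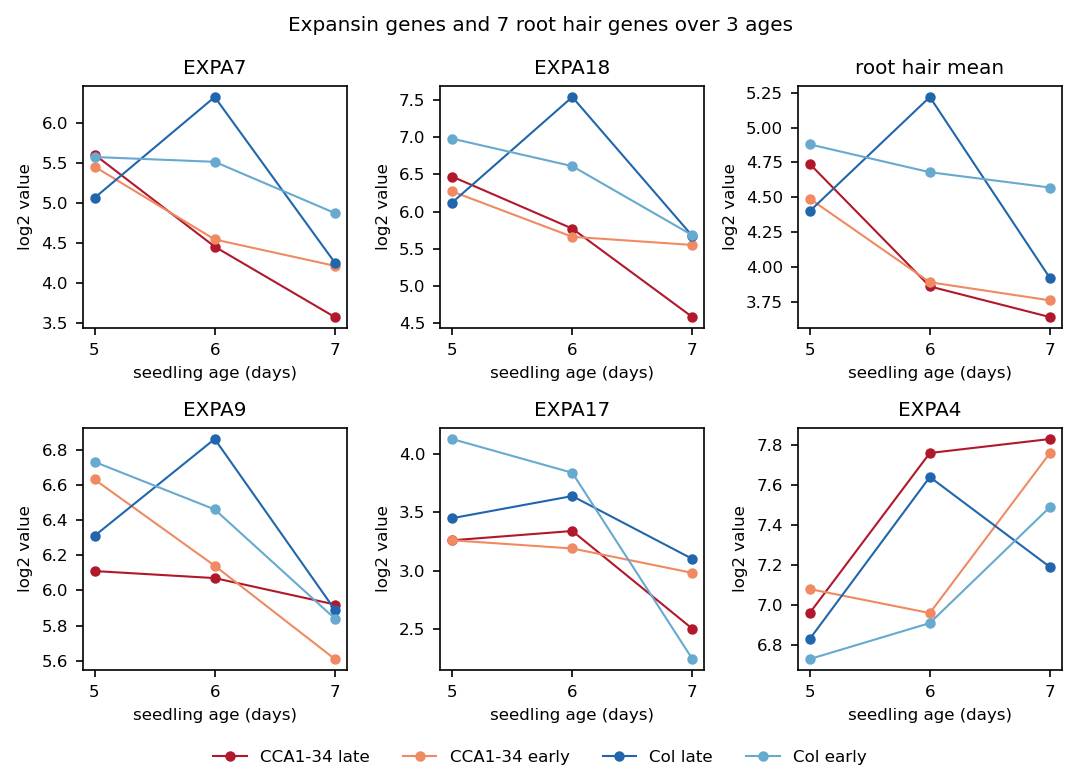
Log2 values of 5 expansin genes and the mean of 7 root hair genes (y axes) at 5, 6 and 7 days (x axes), 1 line per group with 1 array per point. EXPA7, EXPA18, EXPA9 and EXPA17 are lower at 7 than at 5 days in all 4 groups, with a peak at 6 days in Col late for EXPA7 (6.33), EXPA18 (7.54), the root hair mean (5.22) and EXPA9 (6.86), and EXPA4 is higher at 7 than at 5 days in each group.

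Whether the slopes differed between the lines was tested too. Limma passed 0 of 31 expansins and 0% of all probe sets, and 2 of 31 (6.45%) against 2.32% of all had an unadjusted p under 0.05. Without both early arrays that stand apart it was 0 of 31, against 2.68% of all. EXPA2, an alpha-expansin of the germinating seed, had a slope of 0.76 per day in CCA1-34 (SE 0.26) and -0.28 in Col (SE 0.26), which differed by 1.04 (SE 0.368, limma adjusted p = 1), or by 0.73 without those arrays. Its arrays were 5.06, 5.57 and 7.16 in CCA1-34 late, 5.26, 5.55 and 6.18 in CCA1-34 early, 5.28, 6.45 and 5.16 in Col late and 5.73, 6.08 and 4.71 in Col early. Both CCA1-34 groups were highest at 7 days and both Col groups at 6 days. The mean of 9 seed and embryo genes was 3.56, 4.37 and 4.01 in CCA1-34 late, 3.99, 4.43 and 4.68 in CCA1-34 early, 4.07, 5.30 and 3.72 in Col late and 3.38, 4.55 and 3.68 in Col early, so it too was highest at 6 days in Col late and Col early, as it was in CCA1-34 late, and its part in EXPA2 was not tested. The other was EXPA6, with a difference of slopes of 0.33 (SE 0.136, limma adjusted p = 1), or 0.16 without Col early replicate 3, followed by EXPA13, an alpha-expansin, with 0.17 (SE 0.0732). EXPA13 spanned only 0.41 over all arrays, at 5.83, 5.96 and 6.13 in CCA1-34 late, 5.72, 5.72 and 5.94 in CCA1-34 early, 5.89, 5.78 and 5.83 in Col late and 5.84, 5.78 and 5.75 in Col early.

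At 5 days the early arrays were taken in the first dark period of the pulse regime, and 3 expansins were lowest there in both lines. EXPB3, a beta-expansin named after its values were seen, lay at 8.46, 9.08 and 8.80 in CCA1-34 late, 7.21, 9.01 and 9.50 in CCA1-34 early, 8.59, 8.88 and 8.00 in Col late and 7.21, 8.01 and 9.05 in Col early. EXLB1 at 4.82 and 5.25 and EXPA1 at 8.23 and 8.36 had their lowest values in the same arrays. Both early arrays of 5 days lay below the other 10 arrays for these 3 of 31 members (9.68%) and for 4.3% of all probe sets, and above them for EXPA11 alone (3.23%, against 5.14%). This is 1 array per line and has no test.

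**Figure D5:**
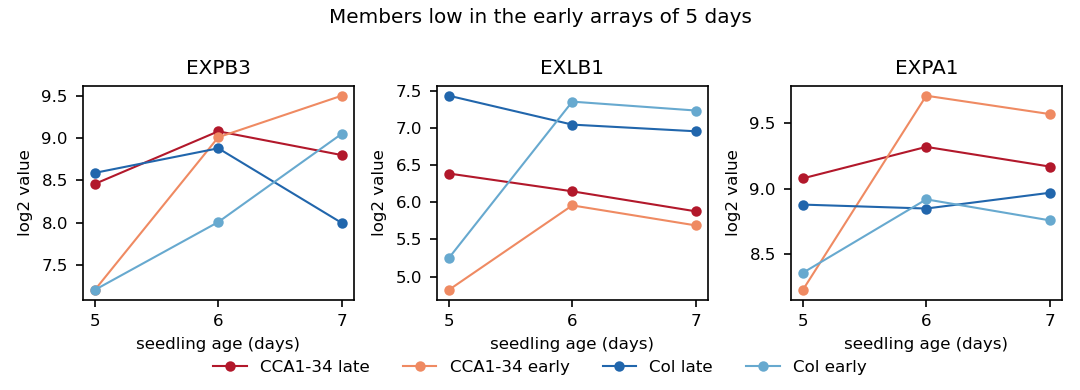
Log2 values of EXPB3, EXLB1 and EXPA1 (y axes) at 5, 6 and 7 days (x axes), 1 line per group with 1 array per point. In CCA1-34 early and Col early the 5-day arrays are the lowest of all, at 7.21 and 7.21 for EXPB3, 4.82 and 5.25 for EXLB1, and 8.23 and 8.36 for EXPA1, below both late groups of the same age.

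Other genes of the growth pathway were taken from lists chosen with earlier results of these data known, so their counts are descriptive. Plasma membrane proton pumps acidify the wall in which expansins work, and SAUR proteins of the SAUR19 group activate them. Of the 7 measured genes of this kind 0 passed in any group comparison and AHA3, a pump gene, rose with age by 0.73 per day (SE 0.0966, limma adjusted p = 0.0235), a call lost without Col early replicate 1, as all age calls are. SAUR23 was the only SAUR of this group with a probe set annotated to its locus alone. Whether that probe set also binds similar SAUR transcripts was not tested. It lay at 7.07, 7.51 and 7.18 in CCA1-34 late against 4.64, 4.94 and 5.47 in Col late (difference 2.24, SE 0.502, limma adjusted p = 0.458). These groups did not overlap, as was true in this direction of 5.45% of all probe sets. Early it lay at 5.98, 5.83 and 7.18 in CCA1-34 and at 6.58, 6.86 and 4.86 in Col. Col early replicate 3 thus fell within the Col late range. XTH enzymes cut and rejoin xyloglucan, and of 14 measured XTH genes 0 passed in any group comparison, while XTH33 fell with age by 0.88 per day (limma adjusted p = 0.0397). XTH17 was 0.94 higher in the growing groups than in Col late (SE 0.206, limma adjusted p = 0.295), with Col late at 6.15, 6.64 and 6.30. Col early lay at 7.26, 7.11 and 6.50, so its replicate 3 fell within the Col late range. XTH17 was also higher in CCA1-34 than in Col at both times, by 0.68 early (SE 0.253) and 0.97 late (SE 0.253).

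Of the 10 measured PIF and growth regulators, 0 passed in any group comparison without the day as a block, but 8 had an unadjusted p under 0.05 between the growing groups and Col late, where 5.32% of all probe sets did. PIF4, a bHLH factor of elongation in darkness, lay at 6.40, 7.02 and 7.15 in CCA1-34 late, 6.64, 6.70 and 7.04 in CCA1-34 early, 2.91, 3.58 and 5.23 in Col late and 6.52, 6.27 and 6.49 in Col early. It was 2.79 higher in the growing groups (SE 0.378, limma adjusted p = 0.0649, or 0.0460 with the day as a block), and the gibberellin synthesis gene GA20OX1 1.90 higher (SE 0.306, adjusted p = 0.0951). The largest expansin difference in the same direction was 0.97, for EXPB1.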

How the data were processed

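Biotin-labelled cRNA of whole seedlings was hybridised to Affymetrix arrays. The authors deposited log2 values; the file headers give the scale, and the submitters' processing notes name RMA without its settings. RMA sets the arrays to like distributions, so it can hide a change shared by most transcripts. Values of the per-array files and the series' table were equal (0 cells differed). The 64 control probe sets among 22810 were removed.

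Members and lists were chosen with earlier results of these data known. Symbols follow the superfamily's usual names, 33 of 35 being the symbols of NCBI's TAIR10.1 table; no build is named for the files, so no coordinates are given. Group means of all 12 arrays were compared with limma 3.58.1 in R 4.3.3 (eBayes, two-sided, 8 residual degrees of freedom) and Benjamini-Hochberg adjustment over 22746 probe sets at 0.05, and age was fitted as a slope with group as a factor. The fits were tested on simulated data. No filter was used. Values in every array were given for members past the threshold, the 3 members with the smallest p per comparison, and 10 members of known role (EXLA1 was not measured). From the other lists, members past the threshold and the 2 with the smallest p per comparison could be named. Per the labels, replicate numbers mark the day of sampling and so pair arrays across groups, although the deviations of same-numbered arrays correlated with r from -0.317 to 0.505 over 18 pairs, 12 of them over 0.1. The number of arrays limits the precision. Alternatives were the day as a block, a filter on dim probe sets (mean under 5), eBayes with trend or robust, array weights, median centring, fewer arrays, and each array left out.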

Additional observations from a re-analysis of the deposited data

Results flagged for a closer look

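EXLA2 drew attention because its late minus early difference had opposite signs in the lines on all 3 days: 0.29, 0.20 and 0.41 in CCA1-34 and -0.80, -0.87 and -0.15 in Col. The difference between the lines was 0.90. The sign pattern itself was not tested, and the interaction in limma had an adjusted p of 1. The pattern held for 421 of all probe sets (1.85%). The smallest Col difference came from the day whose early array, Col early replicate 3, had high light state genes.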

How the results depend on the processing

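Differences kept their direction in all 572 recomputed values of the 3 leading members of each comparison, and 7 of them passed only under the alternative. These members were chosen by their small p with all arrays, so a kept direction was likely beforehand and says little. The count of expansins past the threshold was 0 with all arrays in each comparison. With array weights it was 1 for CCA1-34 minus Col late (EXLA2) and 3 for the growing groups minus Col late (EXLA2, EXPA3 and EXPA11). The calls over all probe sets with array weights are not given here. Leaving out both early arrays that stand apart, a choice made with earlier results known, gave 1 for the growing groups (EXLA2) and 1 for the age slope (EXPB1). Over all probe sets the same choice gave 66 calls against 4 for the growing groups, and 213 against 179 for the age slope. Leaving out 1 array in turn gave 0 to 1 for the growing groups (1 without Col early replicate 3) and 0 to 2 for the age slope (2 without Col late replicate 2). The cause was not tested. The block for the day of sampling changed no expansin call (0 in each of the 8 comparisons between groups; it was not run for the age slope, since age is the day, or for the difference of slopes); over all probe sets it gave 6 calls against 2 for CCA1-34 minus Col late and 16 against 5 over both times. The age calls over all probe sets, 179, lay between 0 and 427 when 1 array was left out. The filter on dim probe sets (which tested fewer members), eBayes with trend, robust eBayes, median centring and the fit of the compared groups alone gave 0 expansins in each comparison they could be run for. The choice of another probe set per gene was not run, because no member had several. The CCA1 difference lay between 5.07 and 5.85 when 1 array was left out.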
